A study of Mus musculus with 9 samples.

Results

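Of 9 arrays of mouse tissue, 5 carried RNA of tumours, and these are compared here by the code in their titles. The CC group was the 3 tumours labelled CC23, CC17-A and CC17-B, and the SSM group was the 2 tumours labelled SSM4 and SSM5. All 5 came from mice of the one genotype that the titles give as MYF-5 CRE/SSM2, so both groups share every allele that is named, and no treatment or age is given. The other 4 arrays were wild type skeletal muscle (2 hind limb, 1 intercostal, 1 forelimb), used only as the reference level for muscle transcripts that remained in a tumour. The titles do not say what CC and SSM stand for, where in the body a tumour lay, or whether each array is a separate animal. CC17-A and CC17-B share the code CC17 and may share an animal. The p-values therefore measure only the spread between these samples, which may be technical.

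The series is titled a model of synovial sarcoma, a soft tissue cancer that carries the fusion protein SYT-SSX. That protein joins a subunit of the BAF chromatin remodelling complex to a repressor domain, and human tumours are known for neural, epithelial and mesenchymal transcripts in varying proportion. Cre from Myf5, a transcription factor of muscle precursors, confines recombination to cells with a history of Myf5 expression, which limits the model to that lineage. Whole tumours were excised, so each array also holds RNA of whatever stroma, blood vessels, fat, nerve and muscle the sample contained. In such bulk samples, fewer cells of a type and less RNA per cell cannot be told apart.

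Levels are given as scaled intensity, the brightness of an Affymetrix probe set after each array was brought to a common 2% trimmed mean. A difference is the mean log2(scaled intensity + 16) of the CC arrays minus that of the SSM arrays, with its standard error (SE) from limma, and a fold on this scale understates the change of dim genes. Of 14440 genes with a probe set of their own, 10766 reached the floor (the 40th percentile of an array) on at least 2 tumours and were tested. A gene was called at a Benjamini-Hochberg adjusted p under 0.05 over those genes. All adjusted p-values below are from this limma fit.

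The 2 SSM tumours were the most alike of the 10 pairs of tumours. SSM4 and SSM5 had a Pearson r of 0.911 across genes and 741 genes (6.88% of those tested) at least 2-fold apart. CC17-A and CC17-B, which share a code, had 1854 such genes (17.2%) and an r of 0.893. CC23 differed from CC17-A in 2397 genes and from CC17-B in 2036. Between the labels the count ran from 2195 genes, for CC17-B and SSM5, to 3551, for CC23 and SSM4. The pairs of CC tumours thus overlapped with the pairs across labels in their distance, since CC17-A lay farther from CC23 (2397 genes) than from SSM5 (2337). Under the 9 other scalings, pseudocounts and filters computed, the SSM pair was also the closest. These counts are descriptions with no test, across genes that are not independent.

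**Figure D1:**
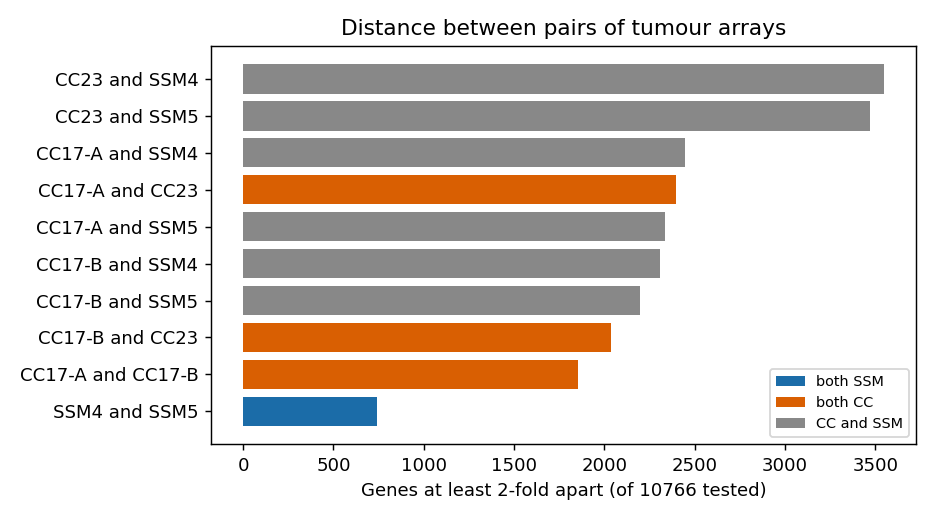
Number of genes at least 2-fold apart (x axis, of 10766 tested) for each of the 10 pairs of tumour arrays (bars), coloured by whether the pair is within or across labels. The SSM pair has 741 genes, the 3 CC pairs 1854 to 2397, and the pairs across labels 2195 to 3551.

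The labels differed in 164 genes, or 1.52% of those tested. Called higher in CC were 95 genes (0.882%), led by the meiotic cohesin gene Rec8 and the neural gene Gap43, with Sox11 and the non-coding RNA Xist among the others. Called higher in SSM were 69 genes (0.641%), led by the matrix gene Mfap4 and the myelin gene Mbp. The secreted lipid carrier Apod and the leptin receptor Lepr were among the others. At an unadjusted p under 0.05 stood 2226 genes, and the smallest adjusted p, 0.0239, was shared by 40 genes. In 2194 genes (20.4%) all 3 CC arrays lay above both SSM arrays, and in 2429 genes (22.6%) the SSM arrays lay above, 42.9% together. With group means also at least 2-fold apart, these were 859 (7.98%) and 841 genes (7.81%). The median difference over all genes was -0.03. Each array decided much of the count. Without CC17-B, CC23 or SSM5, 0 genes were called, with 2248, 1995 and 1124 genes at an unadjusted p under 0.05. Without SSM4, 15 were called, and without CC17-A, 287. With the genes and their probe sets kept as above, the counts were 0 for the same 3 arrays, with 2263, 2021 and 1114 genes at an unadjusted p under 0.05, and 4 without SSM4 and 290 without CC17-A. With limma's intensity trend switched off, the single call was Mfap4. CC made up 57.9% of the calls here, 34.7% with values as deposited, 38.9% after median centring and 23.4% after centring on genes of the ribosome and proteasome. Those 3 scalings moved the median of all genes to -0.35, -0.26 and -0.34, so list medians below are read against the median of all genes.

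**Figure D2:**
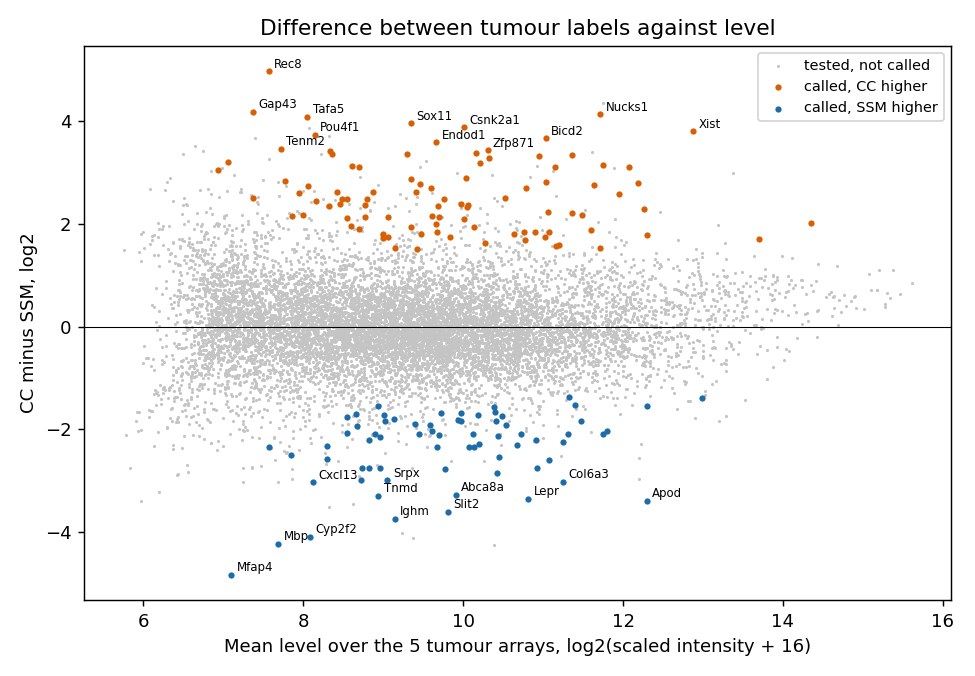
CC minus SSM difference on the log2 scale (y axis) against the mean level over the 5 tumours, as log2(scaled intensity + 16) (x axis), with 1 point per tested gene. Orange points are the 95 genes called higher in CC and blue points the 69 called higher in SSM, and the named genes are the 12 largest called differences in each direction.

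Several of the largest differences toward CC were genes near the floor or below it in both SSM tumours. Rec8, a cohesin subunit of meiotic chromosomes, stood at 1482 in CC17-A, 337 in CC17-B and 792 in CC23, against 5.64 in SSM4 and 10.6 in SSM5. It was below the floor in both SSM tumours and at least 6.67-fold higher in CC by the floor (adjusted p = 0.0239). Gap43, a growth cone protein of neurons, stood at 837, 465 and 340 in the CC arrays (in the order CC17-A, CC17-B, CC23, kept below) and at 7.92 and 19.6 in SSM4 and SSM5. It was at least 4.66-fold higher (adjusted p = 0.0239). For both genes the groups were far apart, CC17-A was highest, and muscle also lay below the floor, at 17.5 ± 15.5 (SD, n = 4) for Rec8 and 27.2 ± 19.1 for Gap43.

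Sox11, a SOX factor of neural and mesenchymal progenitors, was at 3206, 2473 and 913 in CC and 144 and 82.2 in SSM, a difference of 3.96 (SE 0.53, adjusted p = 0.0239). The lowest CC tumour, CC23, was still far above the higher SSM tumour. All 6 tested probe sets of Sox11 lay higher in all CC arrays than in both SSM arrays. Pou4f1, a POU factor of sensory neurons, was at 460, 839 and 1220 against 24.6 and 72.6, at least 7.04-fold higher (adjusted p = 0.0264), and here CC23 was the highest. Tafa5, a secreted protein of the nervous system, was at 285, 1596 and 1118 against 47.7 and 21.0, at least 7.25-fold higher (adjusted p = 0.0422), with muscle at 331 ± 41.0. Tenm2, a teneurin of neuronal contacts, was at 984, 346 and 440 against 71.4 and 12.5, at least 4.85-fold higher (adjusted p = 0.0482). CC17-A was the low array for Tafa5 and the high one for Tenm2, while neither gene reached the floor in an SSM tumour.

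The list of neural and neurofilament genes had 23 tested members, of which Gap43 alone was called (higher in CC) and 8 (34.8%) had all CC arrays above both SSM arrays, with 0 the other way, beside 20.4% and 22.6% of all genes. Its median difference was 0.74 beside -0.03 over all genes. Dcx, a microtubule protein of migrating neurons, was at 1639, 148 and 61.9 against 3.41 and 18.2 and was not called (adjusted p = 0.175). Sez6, a membrane protein of neurons, was at 3567, 11318 and 2376 against 1177 and 217 (adjusted p = 0.095). The CC arrays differed among themselves by more than 4-fold in both genes, and in Sez6 the SSM arrays lay below all of them. Dcx was below the floor in CC23 and both SSM tumours, so no order is read among those arrays, although it counts among the 8. Of the pair with one code, CC17-A was at least 2-fold above CC17-B in 12 of the 23 and CC17-B above CC17-A in 3. Over all genes these shares were 11.5% and 5.75%.

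Of the markers used for human synovial sarcoma, 33 were tested. Called were 2, both higher in CC, or 6.06% beside 0.882% of all genes. CC lay above in 11 (33.3%) and SSM in 5 (15.2%), beside 20.4% and 22.6% of all genes, and the median was 0.39. The called ones were Ncam1, a neural and muscle adhesion molecule, and Pax3, a transcription factor of muscle and neural crest precursors. Ncam1 was at 1696, 2866 and 6521 against 263 and 366, a difference of 3.28 (SE 0.52, adjusted p = 0.0349). Pax3 was at 1228, 1102 and 1955 against 362 and 313, a difference of 1.99 (SE 0.33, adjusted p = 0.0355). In both, CC23 was highest and the groups were well apart, and both genes also belong to the list of embryonic muscle genes below. Of the 5 tested probe sets of Ncam1, 2 others had the CC arrays above both SSM arrays, 0 had the reverse, and with probe sets ending in _at alone the difference was -0.27. Tle1, a corepressor used as a diagnostic marker, was at 1615, 1205 and 1290 against 1215 and 1017, with overlapping groups and a difference of 0.29 (SE 0.27, adjusted p = 0.58). Bcl2, a survival factor, was at 704, 420 and 619 against 524 and 532, also overlapping (difference 0.10, SE 0.32). Ss18, whose product supplies the first part of the fusion, was at 3435, 4761 and 5073 against 3445 and 3363, and the groups overlapped (difference 0.36, SE 0.28). Sox2, a stem cell factor that was at 9.90 ± 12.6 in muscle, was at 2742, 4520 and 5097 against 1290 and 2530, a difference of 1.13 (SE 0.39, adjusted p = 0.171). Ptn, the growth factor pleiotrophin, was at 17212, 25365 and 39004 against 10223 and 10172, a difference of 1.33 (SE 0.38, adjusted p = 0.115). Both were higher in every CC array than in either SSM array and did not pass the test. The 5 with both SSM arrays above were Twist1 (-1.22), Cdh11 (-0.95), Pdgfra (-0.90), Sox9 (-0.59) and Axin2 (-0.29), none of them called.

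Genes of the cell cycle lay higher in the CC tumours. Of 48 tested members, 4 were called, all higher in CC (8.33% of the list beside 0.882% of all genes), and 36 had every CC array above both SSM arrays, beside 20.4% of all genes. E2f1 was the single member with both SSM arrays above. The median difference was 0.89, and it ran from 0.92 to 0.96 above the median of all genes under the 5 scalings tried. Relative to muscle, the mean of the list was 3.27, 3.14 and 2.90 higher (log2) in CC17-A, CC17-B and CC23 and 2.13 and 2.33 higher in SSM4 and SSM5. All 5 tumours were thus far above muscle in this list, and the labels differed by less than the tumours differed from muscle.

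Cdc20, an activator of the anaphase-promoting complex, was at 4348, 6069 and 5324 in CC and 1187 and 1656 in SSM, a difference of 1.88 (SE 0.29, adjusted p = 0.031). Kif2c, a kinesin that shortens microtubules at kinetochores, was at 1287, 1178 and 1622 against 346 and 384, a difference of 1.85 (SE 0.28, adjusted p = 0.0302). Mcm6, a subunit of the replicative helicase, was at 2519, 3495 and 3527 against 720 and 1054, a difference of 1.83 (SE 0.30, adjusted p = 0.0355). In these genes the CC arrays lay close together and clear of both SSM arrays. Mcm5, another helicase subunit and named because it is the fourth call of the list, was at 3100, 4194 and 3722 against 1134 and 1263, a difference of 1.59 (SE 0.26, adjusted p = 0.0355). Mki67, the proliferation antigen Ki-67, was at 3873, 5441 and 7037 against 2254 and 3082, a difference of 1.002 (SE 0.33) that did not pass the test (adjusted p = 0.153), although the groups did not overlap. The 4 called genes were each represented by a probe set ending in _x_at, a type that can also bind related sequences. Their probe sets ending in _at gave smaller differences. These were 1.02 for Cdc20, 0.89 and 0.53 for Kif2c and 0.89 for Mcm6, all with CC above, and 0.38 with overlapping groups for Mcm5. Groups also overlapped on a dimmer probe set each of Cdc20 (0.98) and Kif2c (0.65). Macrophage and matrix transcripts lay lower on the same CC arrays, as given below, and their part in these differences was not tested.

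The promoters of the 4 called cell cycle genes are shown because the genes moved together and many cell cycle promoters carry the same short elements. Each window holds 250 bases before and 50 after the first start site that RefSeq lists for the gene (build GRCm38.p6), read 5′ to 3′ on the strand of the gene. Cdc20 lies at chr4:118437294-118437593 (minus strand), Kif2c at chr4:117178723-117179022 (minus), Mcm5 at chr8:75109259-75109558 (plus) and Mcm6 at chr1:128359656-128359955 (minus). Capitals mark every match on either strand to CCAAT, the site of NF-Y, to TTTGAA, the core of the CHR element, and to GCGGGAA, a core of E2F sites, and no match overlapped another in these windows.
Cdc20: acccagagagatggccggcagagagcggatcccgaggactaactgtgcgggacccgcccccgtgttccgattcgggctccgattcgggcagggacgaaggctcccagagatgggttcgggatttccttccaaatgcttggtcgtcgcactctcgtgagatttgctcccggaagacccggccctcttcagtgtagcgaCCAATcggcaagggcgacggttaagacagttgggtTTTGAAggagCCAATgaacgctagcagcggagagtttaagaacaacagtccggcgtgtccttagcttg
Kif2c: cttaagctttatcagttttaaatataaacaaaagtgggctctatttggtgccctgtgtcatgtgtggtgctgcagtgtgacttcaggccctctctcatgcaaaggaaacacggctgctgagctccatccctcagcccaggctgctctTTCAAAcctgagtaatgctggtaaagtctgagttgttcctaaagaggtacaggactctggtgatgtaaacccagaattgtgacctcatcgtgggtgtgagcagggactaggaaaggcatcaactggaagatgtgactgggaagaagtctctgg
Mcm5: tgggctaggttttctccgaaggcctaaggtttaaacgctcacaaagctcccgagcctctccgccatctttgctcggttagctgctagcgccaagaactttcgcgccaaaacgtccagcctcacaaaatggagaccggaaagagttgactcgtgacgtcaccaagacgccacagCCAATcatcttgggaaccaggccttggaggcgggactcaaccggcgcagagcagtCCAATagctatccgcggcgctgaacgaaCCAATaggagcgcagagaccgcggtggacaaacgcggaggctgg
Mcm6: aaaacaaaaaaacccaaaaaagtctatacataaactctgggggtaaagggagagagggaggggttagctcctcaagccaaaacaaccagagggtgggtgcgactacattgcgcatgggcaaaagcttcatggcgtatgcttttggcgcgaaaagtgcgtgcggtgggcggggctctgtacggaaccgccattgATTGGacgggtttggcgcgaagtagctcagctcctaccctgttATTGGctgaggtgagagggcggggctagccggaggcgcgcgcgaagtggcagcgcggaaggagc
Cdc20 had 2 CCAAT matches and 1 TTTGAA match, Mcm5 had 3 CCAAT matches, Mcm6 had 2 CCAAT matches and Kif2c had 1 TTTGAA match. None of the 4 windows held GCGGGAA. Promoters were matched for 39 of the 48 tested members of the list. CCAAT was in 27 of those 39 (69.2%) and in 37.9% of all 27025 promoters of this length, TTTGAA in 17 (43.6%) and 18.1%, and GCGGGAA in 8 (20.5%) and 4.66%. A match is a stretch of letters and not a measured binding site. The 39 were taken whether or not they differed between the labels, so these shares say nothing about CC against SSM.

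Ribosomal protein genes also lay higher in CC, with 0 of 19 tested members called but 17 with all CC arrays above both SSM arrays and 0 the reverse (background 20.4%). Their median was 0.58. This direction depends on the scaling and the probe sets. The median fell to -0.06 with quantile normalization, where the list stood 0.01 above the median of all genes, to 0.01 with probe sets ending in _at alone, and to 0.37 without CC23. Rpl37, a protein of the large subunit, was at 10712, 8617 and 8017 against 4095 and 3849 (difference 1.18, SE 0.27, adjusted p = 0.0698). Rpl35 was at 34880, 51325 and 73944 against 21502 and 26428 (difference 1.10, SE 0.39, adjusted p = 0.178). The CC arrays lay above the SSM arrays in both genes, most widely for Rpl37 in CC17-A and for Rpl35 in CC23.

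Xist, the RNA that coats the inactive X chromosome, was at 14268, 25104 and 28040 in CC and 1446 and 1625 in SSM by its representing probe set, a difference of 3.80 (SE 0.35, adjusted p = 0.0239). Its second tested probe set read 7861, 7549 and 7360 in CC and 6695 and 7576 in SSM, with overlapping groups and a difference of 0.09. The 2 probe sets of this gene therefore gave different answers, and both lay far above the floor on every tumour. Of the Y-linked genes, Eif2s3y was at 9.87, 44.5 and 84.6 in CC and 26.2 and 23.3 in SSM. Kdm5d was at 92.6, 57.3 and 13.4 against 8.38 and 66.6, and Uty at 1.49, 35.0 and 118 against 17.5 and 0.569. All of these were below the floor on every tumour and not tested, and Ddx3y had no probe set of its own here.

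Such disagreement among probe sets was common among the genes called higher in CC. Of those 95 genes, 68 had more than 1 tested probe set, and in 23 of the 68 (33.8%) all of them lay on the same side. Their 119 other probe sets had a median difference of 0.46, beside 2.43 for the representing ones. Of these 119, 52 lay on the same side, 50 overlapped and 17 lay on the opposite side. Of the 69 genes called higher in SSM, 22 had more than 1, and in 14 of the 22 (63.6%) all lay on the same side. Their 37 other probe sets had a median of -1.49 beside -2.31, with 28 on the same side, 8 overlapping and 1 opposite. Part of these gaps is built in, because a gene entered the count only when its representing probe set was called. That set was the brightest over the tumours, where CC arrays outnumber SSM arrays, so the directions are not on an equal footing. The shares were not computed over all 4458 genes with more than 1 tested probe set, so they have no background beside them. Probe sets of a gene can read different transcript ends, and which transcripts each one reads was not tested.

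Nucks1, a nuclear DNA-binding protein, was at 3734, 11764 and 26652 in CC against 469 and 732 in SSM by the representing probe set (difference 4.13, SE 0.71, adjusted p = 0.0433). Its brightest other probe set read 6487, 6044 and 4580 against 5912 and 9129, a difference of -0.38 with overlapping groups. On the representing probe set the difference was 3.46 without CC23. Choosing the brightest probe set again without CC23 takes that other one, where it was -0.23. Csnk2a1, the catalytic subunit of casein kinase 2, was at 1601, 3592 and 4652 against 171 and 208 (difference 3.88, SE 0.45, adjusted p = 0.0239). Of its 4 other probe sets, 2 lay higher in CC by 2.07 and 1.49 and 2 overlapped, with differences of -0.02 and 0.14. Bicd2, a dynein adaptor, was at 2380, 5547 and 14498 against 491 and 396 (difference 3.66, SE 0.65, adjusted p = 0.0478), and 2 of its 4 others overlapped. Endod1, an endonuclease domain protein, was at 1114, 1690 and 5461 against 158 and 175 (difference 3.59, SE 0.60, adjusted p = 0.0397), and 1 of its 4 others lay higher in SSM, by -0.31. Zfp871, a zinc finger protein, was at 2237, 3616 and 4273 against 280 and 296 (difference 3.43, SE 0.33, adjusted p = 0.0239), and its other probe set was also higher in all CC arrays. With probe sets ending in _at alone, Csnk2a1, Bicd2 and Endod1 were at -0.02, -0.08 and -0.31. In all 5 genes CC17-A was the lowest CC array and CC23 the highest.

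**Figure D3:**
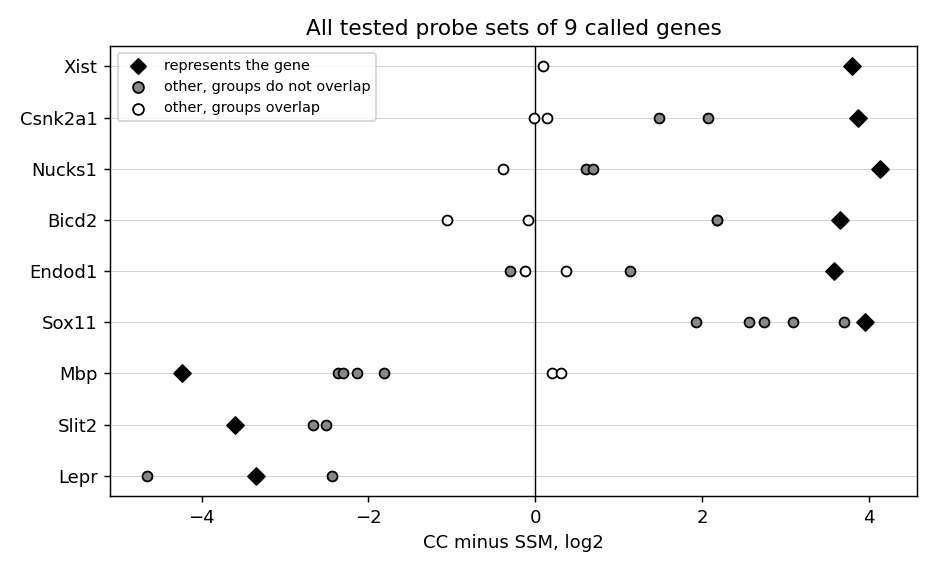
CC minus SSM difference on the log2 scale (x axis) for every tested probe set of 9 called genes (rows). Black diamonds represent the gene in the test, grey circles are other probe sets whose CC and SSM arrays do not overlap, and white circles are others that overlap. The second probe set of Xist lies at 0.09 while all 6 of Sox11 lie to the right of 0.

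CC23 was the highest CC array in 68 of the 95 genes called higher in CC (71.6%), beside 33.4% of all tested genes. The same array stood apart in RNA quality. The ratio of the 3-prime to the 5-prime control probe set of Actb, which rises as RNA is degraded or copied short, was 12.7 in CC23, 1.99 in CC17-A and 2.90 in CC17-B. It was 2.04 in SSM4 and 4.54 in SSM5, and 1.62 to 1.93 in muscle. The ratio comes from a gene that was itself called higher in CC. Actb differed by 2.02 on its representing probe set and overlapped between the groups on another (-0.36). With the Actb ratio as a covariate, 186 genes were called, 140 of them shared with the 164. Without CC23 no call was left, as stated above, with 1995 genes at an unadjusted p under 0.05. No call was left without CC17-B either, so the loss was not particular to CC23, and its cause was not tested.

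**Figure D4:**
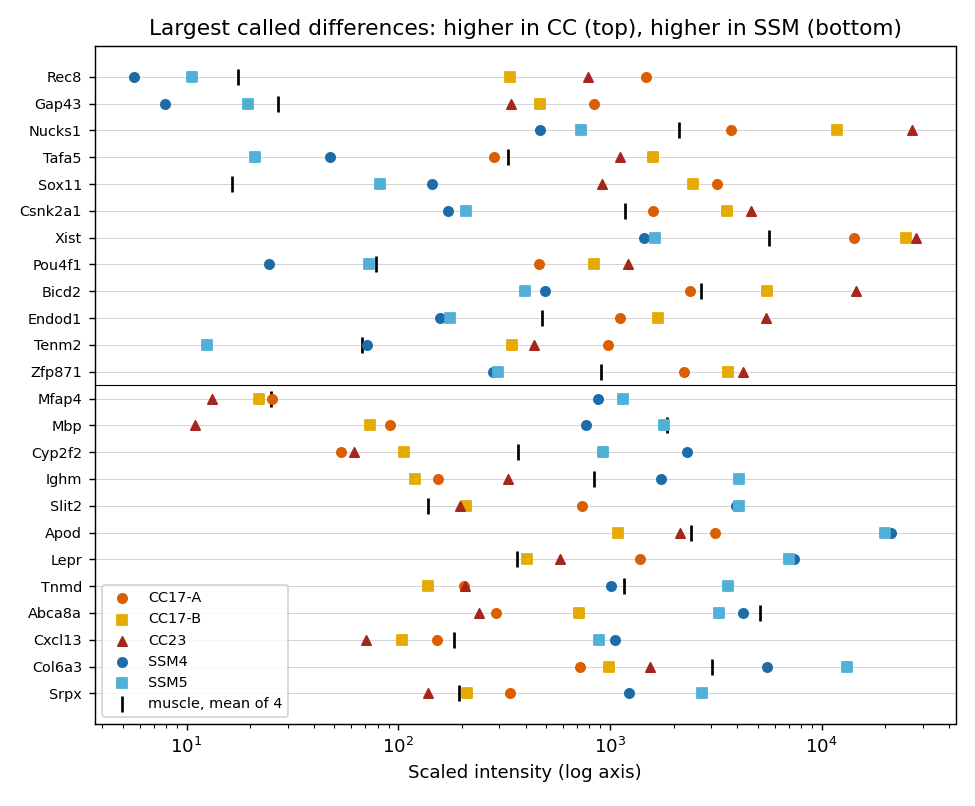
Scaled intensity (x axis, log scale) of the 12 largest called differences in each direction, with 1 marker per tumour array and a bar for the mean of 4 muscle arrays. CC markers are orange to red and SSM markers blue. In every row the 3 CC and the 2 SSM markers do not overlap.

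Among signalling genes, single members were called in either direction. Nkd1, an inhibitor and target of Wnt signalling, was at 463, 782 and 920 in CC against 77.3 and 158 in SSM, a difference of 2.48 (SE 0.43, adjusted p = 0.0437). It was the single call among 37 tested Wnt genes, of which 5 (13.5%) had CC above and 10 (27%) had SSM above, beside the 20.4% and 22.6% of all genes. Its relative Nkd2 was at 453, 238 and 501 against 1307 and 2078, the reverse order, with a difference of -2.08 (SE 0.39) just short of a call (adjusted p = 0.0508). By their representing probe sets the 2 paralogues lay on opposite sides. Of the 3 other tested probe sets of Nkd1, 1 lay on the same side and 2 overlapped, with differences of 0.15 and 0.07. Spry4, a feedback inhibitor of FGF signalling, was at 1167, 1647 and 2168 against 341 and 162 (difference 2.69, SE 0.40, adjusted p = 0.0299), 1 call among 19 tested FGF genes, 7 of which (36.8%) had CC above and 3 (15.8%) SSM above. Its other tested probe set overlapped between the groups. Hhip, which binds hedgehog ligands and is induced by them, was at 426, 552 and 291 against 2354 and 1927 (difference -2.33, SE 0.33, adjusted p = 0.0264). It was the single call among 25 hedgehog and Notch genes, 6 of which (24%) had CC above and 3 (12%) SSM above, beside 20.4% and 22.6% of all genes. Other probe sets of Hhip gave smaller differences, -1.26 and -0.67 on the same side and -0.41 with overlapping groups. Slit2, a secreted guidance cue, was also higher in SSM, at 740, 209 and 196 against 3925 and 4058 (difference -3.60, SE 0.54, adjusted p = 0.0302), and all 3 of its tested probe sets lay on that side.

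Genes higher in the SSM tumours included matrix and connective tissue genes. Mfap4, a microfibril protein of elastic matrix, was at 25.4, 22.1 and 13.2 in CC and 879 and 1156 in SSM. It was below the floor in all 3 CC tumours, as in muscle (25.0 ± 18.5), and at least 7.38-fold higher in SSM (adjusted p = 0.0239). Col6a3, a chain of collagen VI, was at 721, 989 and 1547 against 5512 and 13159 (difference -3.02, SE 0.45, adjusted p = 0.0302). SSM5 was the higher SSM array for both. Col6a1, a further chain of collagen VI and named because it is the third call of the list, was at 2260, 1392 and 2217 against 6770 and 9948 (difference -2.09, SE 0.33, adjusted p = 0.0327). Col14a1, a collagen of fibril surfaces, was at 353, 990 and 522 against 2938 and 2966 (difference -2.34, SE 0.42, adjusted p = 0.0478). Those are the 3 calls among 33 tested collagen and matrix genes (0.641% of all genes were called in this direction). Of the 33, 15 had both SSM arrays above and 1 had CC above, beside 22.6% and 20.4% of all genes. The list median was -0.87.

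Apod, a secreted lipid carrier of fibroblasts and nerve, was at 3142, 1092 and 2149 in CC against 21172 and 19862 in SSM, a difference of -3.39 (SE 0.43, adjusted p = 0.0239). Lepr, the leptin receptor, was at 1394, 406 and 584 against 7398 and 7019, a difference of -3.35 (SE 0.48, adjusted p = 0.0264), and both of its other tested probe sets lay on the same side. The SSM arrays nearly coincided in both genes. Tnmd, a membrane protein of tendon, was at 205, 139 and 208 against 1008 and 3621 (difference -3.29, SE 0.52, adjusted p = 0.0345), with muscle at 1162 ± 362. It was the single call among 7 tendon genes, 2 of which had CC above and 2 SSM above (28.6% each, beside 20.4% and 22.6% of all genes). Abca8a, a lipid transporter, was at 291, 717 and 242 against 4263 and 3285 (difference -3.28, SE 0.46, adjusted p = 0.0264). Srpx, a secreted sushi-repeat protein, was at 337, 212 and 138 against 1230 and 2713 (difference -3.00, SE 0.47, adjusted p = 0.0327). Cyp2f2, a cytochrome P450, was at 53.6, 106 and 61.7 against 2319 and 928 (difference -4.09, SE 0.49, adjusted p = 0.0239). SSM4 was the higher SSM array for Abca8a and Cyp2f2 and SSM5 for Srpx and Tnmd.

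Mbp, the myelin basic protein of myelinating glia, was at 91.6, 73.3 and 11.0 in CC against 773 and 1804 in SSM. It was below the floor in all CC tumours and at least 8.63-fold higher in SSM (adjusted p = 0.0355). Of its 6 other probe sets, 4 lay on the same side and 2 overlapped. Muscle held it at 1859 ± 791, about the level of SSM5. Of the 6 tested Schwann cell genes, Mbp was the call, 4 had SSM above and 1, Egr2, had CC above (66.7% and 16.7%, beside 22.6% and 20.4% of all genes). Pmp22, a myelin membrane protein, was at 2992, 4235 and 6031 against 7731 and 8338, a difference of -0.92 (SE 0.34, adjusted p = 0.19).

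Ighm, the heavy chain of immunoglobulin M, was at 155, 120 and 331 in CC against 1743 and 4054 in SSM (difference -3.74, SE 0.51, adjusted p = 0.0239). Muscle held Ighm at 845 ± 1029 (SD, n = 4). Ighm was the single call among 5 tested lymphocyte genes (20%, beside 0.641% of all genes). Of the 5, 2 (40%) had SSM above, beside 22.6% of all genes, and 3 overlapped, with a list median of 0.23. The other with SSM above, Cd8a, was below the floor in all 3 CC tumours. Cxcl13, a chemokine for B cells, was at 152, 105 and 70.3 against 1052 and 888 (difference -3.03, SE 0.40, adjusted p = 0.0239). None of the 16 tested macrophage genes was called, while 9 had both SSM arrays above and 0 had CC above (background 22.6% and 20.4%), with a list median of -1.14. Cd163, a scavenger receptor of tissue macrophages, was at 139, 598 and 305 against 1419 and 1488 (adjusted p = 0.0796). Fcgr3, an Fc receptor, was at 391, 1019 and 314 against 2267 and 1624 (adjusted p = 0.0957). CC17-B was the highest CC array in both genes, and in the list as a whole it was 1.26 (log2) above muscle, close to SSM5 at 1.44, while CC17-A was at 0.35, CC23 at -0.18 and SSM4 at 1.85. Of 29 tested MHC and interferon genes, 0 were called, 10 (34.5%) had SSM above and 0 had CC above, beside the same shares of all genes, with a median of -0.32. Of 11 tested neutrophil and mast cell genes, 0 were called, with a median of -0.26. Of the 11, 3 (27.3%) had SSM above and 2 (18.2%, Elane and Kit) had CC above, near the 22.6% and 20.4% of all genes. Elane was below the floor in CC23 and both SSM tumours, and Kit separated narrowly, at 253 in CC23 and 250 in SSM5. The 3 with SSM above were mast cell proteases, while the protease Tpsab1 overlapped (difference -0.29). Cpa3 was at 251, 729 and 435 against 1857 and 3997 (adjusted p = 0.0508), Tpsb2 at 151, 103 and 19.5 against 554 and 897 (adjusted p = 0.0689) and Cma1 at 249, 483 and 442 against 1094 and 1885 (adjusted p = 0.0592).

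Fat transcripts varied widely within the CC label. Of 13 adipocyte genes, 0 were called, 5 (38.5%) had SSM above and 0 had CC above, beside 22.6% and 20.4% of all genes, and the median was -1.93. Adipoq, the hormone adiponectin, was at 95.1, 4218 and 134 in CC against 12463 and 4920 in SSM (difference -4.25, SE 1.40, adjusted p = 0.154). CC17-B lay just under SSM5, and CC17-A and CC23 lay far under both. Muscle itself varied widely, at 12901 ± 18705 (SD, n = 4).

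**Figure D5:**
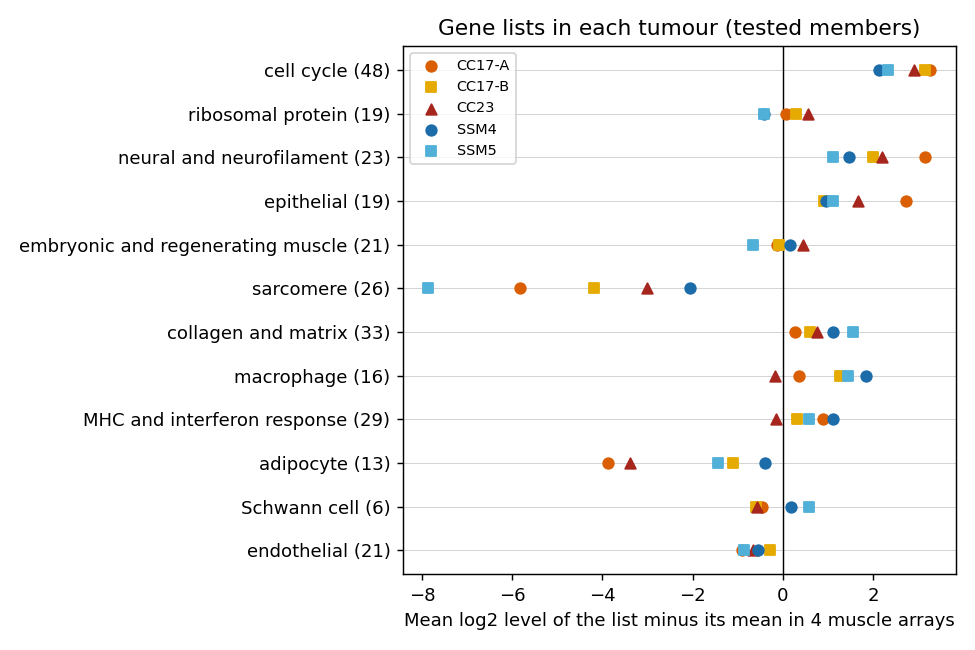
Mean log2 level of the tested members of 12 gene lists (rows, number of members in brackets) in each tumour, minus the mean of the same genes in 4 muscle arrays (x axis). For the cell cycle list all CC markers lie right of both SSM markers, and for sarcomere genes the 5 tumours spread from -7.86 to -2.05 with the labels mixed.

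Residual muscle transcripts differed most within the SSM label. The mean of 26 sarcomere genes, relative to muscle, was -5.83 in CC17-A, -4.18 in CC17-B, -3.02 in CC23, -2.05 in SSM4 and -7.86 in SSM5 (log2). The 2 SSM tumours were the extremes, and in SSM5, 21 of the 26 genes were below the floor, against 9 in CC17-A, 1 in CC23 and 0 in the other two. The CC mean was -4.34 ± 1.42 (SD, n = 3) and the SSM mean -4.96 ± 4.11 (SD, n = 2). The difference was 0.61 with a p of 1 in the exact permutation test over the 10 splits (two-sided), a design in which no two-sided p under 0.2 can arise. It was 3.52 without SSM4 and -2.29 without SSM5. Myh4, the fast IIb myosin heavy chain, was at 6.06, 259 and 103 in CC and 6571 and 2.54 in SSM. Acta1, skeletal actin, was at 1405, 6059 and 10368 against 22685 and 32.7. Ckm, muscle creatine kinase, was at 63.6, 1227 and 3350 against 12383 and 12.6. In each of the 3, SSM4 was the highest tumour, SSM5 was below the floor, and the groups overlapped. CC17-A was also below the floor for Myh4 and Ckm, and CC23 for Myh4, so no order is read among those arrays. Of the 52 tested members of the sarcomere, excitation-contraction and muscle energy lists, 0 were called. Groups did not overlap in 4 of the 52, a smaller share than the 42.9% of all genes. CC lay above in the sarcomere gene Ttn and SSM in the energy genes Aldoa, Pgm1 and Phka1. Between the SSM tumours, SSM4 was at least 2-fold above SSM5 in 23 of 26 sarcomere genes and in 487 genes in all (4.52%). Of the 487, 289 (59.3%) were higher still in muscle. That share was not computed over all tested genes, so the 59.3% has no background beside it. With the sarcomere score as a covariate, 175 genes were called.

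Myf5, whose locus drives Cre, was at 19.2, 12.3 and 73.8 in CC and 19.7 and 3.67 in SSM, below the floor on every tumour and not tested. Myod1, the myoblast determination factor, was at 86.9, 98.6 and 254 against 193 and 15.9, below the floor in 3 of the 5 tumours. Pax7, the satellite cell factor, was at 252, 225 and 315 against 232 and 121, above muscle at 93.3 ± 10.2, and the labels overlapped. Of 21 tested genes of embryonic and regenerating muscle, 2 were called (Ncam1 and Pax3), 4 (19%) had CC above and 5 (23.8%) had SSM above, near the 20.4% and 22.6% of all genes. Dlk1, a Notch-like membrane protein of muscle and fat precursors, was at 1303, 900 and 871 against 5988 and 2694, a difference of -1.98 (SE 0.39) that narrowly missed the threshold (adjusted p = 0.0511). Dlk1 was at 166 ± 43.8 in muscle, so all 5 tumours were above it.

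The 2 arrays with the code CC17 differed in whole groups of genes. CC17-A was at least 2-fold above CC17-B in 1235 genes (11.5%) and CC17-B above CC17-A in 619 (5.75%), with 1 array each and no test. Of the 1854 genes, 22 were among those called between the labels, beside 1.52% of all genes. A wide gap inside CC enlarges the spread used by that test, so the count says nothing about the pair. CC17-A was at least 2-fold higher in 16 of 19 epithelial genes and 13 of 34 position and limb genes, with 0 and 4 the other way. CC17-B was at least 2-fold higher in 19 of 26 sarcomere genes, 9 of 13 adipocyte genes and 7 of 16 macrophage genes, with 0 the other way in each. The pair therefore differed in epithelial transcripts one way and in fat, muscle and macrophage transcripts the other.

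Epcam, an epithelial adhesion molecule, was at 4697 in CC17-A, 508 in CC17-B and 397 in CC23, against 406 in SSM4 and 725 in SSM5. Krt8, a simple keratin, was at 2514, 380 and 540 against 1074 and 343. CC17-A stood far above the other 4 tumours in both genes, and the other CC arrays lay within or near the SSM range. Cldn3, a tight junction claudin, was at 2074, 409 and 532 against 11.8 and 88.0, below the floor in both SSM tumours and at least 6.96-fold higher in CC, but it was not called (adjusted p = 0.0578). The epithelial list had 0 of 19 members called, 6 with CC above (31.6%) and 1 with SSM above (5.26%), beside 20.4% and 22.6% of all genes, and a median of 0.68. Relative to muscle its mean was 2.74 in CC17-A, 0.91 in CC17-B and 1.66 in CC23, and 0.97 and 1.11 in SSM4 and SSM5 (log2).

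The largest single differences within the pair were mostly genes of fat. Hp, the plasma protein haptoglobin, was at 11.0 in CC17-A and 3182 in CC17-B. Fabp4, a fatty acid binding protein of fat cells, was at 358 and 21139. Pck1, an enzyme of glyceride and glucose synthesis, was at 3.68 and 453. In each of these the SSM tumours were nearer to CC17-B than to CC17-A, at 5402 and 2452 for Hp, 20354 and 12810 for Fabp4 and 476 and 158 for Pck1. Mycl, a member of the MYC family, was at 538 in CC17-A and 17.9 in CC17-B, with 29.4 in CC23 and 25.0 and 97.7 in SSM. Pttg1, the inhibitor of separase, was at 400 in CC17-A, 7234 in CC17-B, 7745 in CC23 and 6423 and 5780 in SSM. For these last genes CC17-A stood apart from all 4 other tumours.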

How the data were processed

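Total RNA of whole tissue was hybridised to Affymetrix arrays, 1 per sample. The deposited values are linear probe set intensity made by the authors with MAS5, per the submitters' processing notes, with the version and the scaling target not given in the sources used here. No detection calls were used. Arrays were scaled to a common 2% trimmed mean (deposited means 430 to 610, factors 0.909 to 1.29). Of 30508 probe sets, 7 were controls, 496 had several symbols and 4424 none. The 25581 others gave 14440 genes, with the brightest probe set over the 5 tumours standing for a gene, and 14405 symbols matched RefSeq. Symbols come from GEO's platform annotation, which can be old.

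The test was limma 3.58.1 (R 4.3.3; two-sided, eBayes with a trend on intensity) of CC against SSM tumours on log2(scaled value + 16). A bound ("at least") sets the brighter group's mean against the floor of the dimmer group. Lists are described by counts and medians, and no list was tested against other genes; the sarcomere score alone had an exact permutation test over the arrays. A gene was named if it was among the 12 largest called differences per direction, among up to 3 non-overlapping members per list, on a short list of marker genes, or among the 8 largest differences within the CC17 pair. Outside this rule, Mcm5, Col6a1, E2f1, Elane, Kit, Tpsab1, Twist1, Cdh11, Pdgfra, Sox9, Axin2, Kdm5d and Uty were named after their values were seen. The members and lists were chosen with earlier results of these data known. On simulated data of this size (10766 genes, 200 changed, 20 draws), 1.6% of genes changed 2-fold were recovered, 37.3% at 4-fold, 62.8% at 8-fold and 75% at 16-fold, and 3.55% of calls were false. The simulated noise was normal and independent between genes and arrays. It held no shared animal and no array of lower RNA quality, so these rates need not hold for the real arrays. The number of arrays limits the precision.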

Additional observations from a re-analysis of the deposited data

How the results depend on the processing

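The number of genes called, 164, was 363 after centring on genes of the ribosome and proteasome, 102 with no filter on dim genes, 68 with the mean of all probe sets, 435 with probe sets counted, 1 with no intensity trend, 272 with robust eBayes, 760 with array weights and 61 with the CC17 pair averaged, and ran from 0 to 287 with 1 array left out, or 0 to 290 with genes and probe sets kept. Under the same settings the 95 calls higher in CC became 85, 58, 34, 292, 0, 155, 409 and 31, with 0 to 183 when 1 array was left out, 41 with values as deposited, 49 after median centring, and 50 where every tested probe set had to lie on 1 side. The 69 calls higher in SSM became 278, 44, 34, 143, 1, 117, 351 and 30, with 0 to 104 when 1 array was left out. The cause of these shifts was not tested. Beside the 0 calls higher in CC with no intensity trend, 2087 genes had an unadjusted limma p under 0.05.

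Genes with CC above, 2194, became 1102 (as deposited), 1309 (median), 1137 (ribosomal and proteasome) and 3851 (probe sets), and those with SSM above, 2429, became 3868, 3433, 4151 and 3893. The sarcomere difference ran from -2.29 to 3.52 with 1 array left out. In the order as deposited, median, ribosomal and proteasome, list medians moved to 0.57, 0.65 and 0.58 for cell cycle, 0.078, 0.16 and 0.086 for synovial sarcoma markers and 0.26, 0.35 and 0.26 for ribosomal proteins, and to -1.19 (as deposited) and -1.19 (ribosomal and proteasome) for collagen and matrix. With probe sets ending in _at alone they were 0.67 for cell cycle and 0.0085 for ribosomal proteins, which were at -0.056 with quantile normalization and from 0.37 to 0.75 with 1 array left out. Genes of embryonic muscle, 0.47, ran from -0.33 to 0.68 with 1 array left out. SSM4 and SSM5 were 2-fold apart in 476 genes with a pseudocount of 64, 1683 with no filter, 397 with the floor on 4 of 5 arrays and 349 with a floor at the 60th percentile, and CC17-A and CC17-B in 3065, 1234 and 1071 under the last 3.

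Directions that turned were those of Nucks1 (-0.38), Csnk2a1 (-0.019), Bicd2 (-0.081), Endod1 (-0.31), Ncam1 (-0.27) and Ss18 (-0.47) with probe sets ending in _at alone. Nucks1 ran from -0.23 to 4.88 over the arrays left out, where the lowest value, without CC23, comes with a switch to another probe set, and it ran from 3.46 to 4.88 with its probe set kept. Ckm turned to -0.045 as deposited, -0.059 with quantile normalization, -0.017 with ribosomal and proteasome centring, -0.24 with a pseudocount of 64, -0.76 with the sarcomere covariate and to -0.20, -0.92 and -4.16 without CC17-B, CC23 and SSM5 (from -4.16 to 4.60). Tle1 turned to -0.035 as deposited and -0.029 with ribosomal and proteasome centring. Bcl2 turned to -0.21 as deposited, -0.13 with the median, -0.21 with ribosomal and proteasome centring and -0.048 without CC17-A (to 0.31). With 1 array left out, Myod1 ran from -0.51 (SSM5) to 1.11, Acta1 from -2.34 (SSM5) to 6.52, Epcam from -0.27 (CC17-A) to 1.49, Krt8 from -0.42 (CC17-A; -0.41 without SSM5) to 1.19, Pttg1 from -1.81 to 0.30 (CC17-A) and Mycl from -0.26 (SSM4) to 1.22. The Actb ratio as a covariate, the rule that every probe set lie on 1 side and leaving out arrays with probe sets kept were chosen after seeing the data. A fit with the CC17 pair as a random block was not run, because limma could not estimate the correlation from 4 blocks on 5 arrays. No paired analysis was possible because the titles give the CC and SSM tumours no shared replicate numbers. With 3 against 2 arrays, and dim genes near background, small differences were not detectable.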

Other observations

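No gene of the following 4 lists passed the limma test. Of 34 tested genes of position and limb identity, 2 (5.88%) had CC above and 6 (17.6%) had SSM above, below the 20.4% and 22.6% of all genes. Tbx18, a T-box factor of limb and somite mesenchyme, was at 98.7, 175 and 136 in CC17-A, CC17-B and CC23 and at 453 and 474 in SSM4 and SSM5 (difference -1.68, SE 0.38, limma adjusted p = 0.073). Of 16 p53 targets and cell cycle inhibitors, 5 (31.2%) had CC above and 0 had SSM above, with a median of 0.53. Of 12 circadian clock genes, 1 (8.33%) had CC above and 5 (41.7%) had SSM above, with a median of -0.42. Nr1d2, a clock repressor, was at 3269, 3736 and 2680 in CC and 6046 and 6554 in SSM (difference -0.97, SE 0.27, limma adjusted p = 0.107). Of 21 endothelial genes, 3 had CC above and 3 had SSM above (14.3% each), also below the shares of all genes. Prox1 and Lyve1, both known in lymphatic endothelium, had group means on opposite sides. Prox1 was at 95.4, 469 and 390 in CC and 52.1 and 51.1 in SSM (limma adjusted p = 0.155). Lyve1 was at 50.6, 292 and 49.6 in CC and 668 and 494 in SSM (limma adjusted p = 0.118). Prox1 was below the floor in CC17-A and both SSM tumours, and Lyve1 in CC17-A and CC23. No order is read among those arrays.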
